A study of Homo sapiens with 12 samples.

Results

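Translational efficiency, the number of ribosome footprints per mRNA, was compared between HEK293T Flp-In cells given 10 µM girolline for 2 h and cells given its solvent DMSO. It was measured as the ratio of monosome footprint counts to RNA-seq counts over the same coding region. HEK293T Flp-In is a human embryonic kidney line that carries an engineered site for inserting transgenes, and the labels call its genotype wild type. Girolline is a small molecule first obtained from a marine sponge and known as an inhibitor of protein synthesis. The comparison rests on 6 of the 12 libraries of the series: RNA-seq and monosome libraries with 2 DMSO replicates and 1 library at 10 µM each. The RNA-seq and monosome libraries at 1 µM, 1 of each, were fitted alongside, and the 4 disome libraries, with DMSO and at both doses, served as a separate readout. No gene was deleted and no transgene is named in the labels.

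Ribosome profiling digests the mRNA that ribosomes do not cover and sequences the protected fragments, so the footprints on a coding region grow with the number of ribosomes on it. Divided by the mRNA level, this gives a measure of ribosomes per mRNA, which can rise when ribosomes start more often and also when they move more slowly. A disome footprint is a longer fragment under a pair of adjoining ribosomes. The ratio used here counts monosome footprints only, so ribosomes in such pairs, sequenced in separate libraries, are not part of it. The factor named in the title of the series, eIF5A, carries the modified amino acid hypusine and helps ribosomes form peptide bonds that form slowly and release finished chains.

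Monosome tables use Ensembl transcript IDs and the other tables UCSC IDs. Coding transcripts were therefore paired by aligning both tables in file order on coding length, which gave 76301 pairs among 93916 coding transcripts of the RNA-seq tables and 100283 of the monosome tables. Of these, 10780 reached a mean of at least 10 CPM (counts scaled to a common library total) in both kinds of library. Merging pairs with identical counts in the 8 libraries left 9176, which are the members described here. Across the 10780 pairs, untreated monosome and RNA levels had a Pearson's r of 0.831 and a Spearman's rho of 0.706 on the log2 scale. When the RNA-seq table was shifted by 100 pairs, r fell to -0.001 over the 2615 shifted pairs of at least 10 CPM. Of the 10780 pairs, 7288 (67.6%) lay in aligned runs of at least 5 rows, consecutive in both tables. Over the 3492 pairs in shorter runs, Pearson's r was 0.825. In 7406 of the 9176 pairs, no other transcript of equal coding length lay within 10 rows of either table. The tables used here do not pair these IDs with gene names, so transcripts are given by ID, and gene lists, cell line markers and sequences were not analysed here.

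The libraries held 28424272 to 42194871 counts in RNA-seq and 29278822 to 38074691 in monosomes, for DMSO and 10 µM, and the kept pairs took 48.5 to 50.4% of each. The median count of a pair was 766.5 to 1117 in RNA-seq and 701 to 921 in monosome libraries of these 2 treatments, and the lowest count in any of them was 129. RNA-seq libraries varied more than monosome libraries, with a coefficient of variation from the common dispersion of 9.97% against 3.44% in fits of each kind alone. The error of the ratio therefore came mostly from RNA-seq. No label ties the DMSO libraries to separate cultures, and the p-values cover the spread between these libraries, which may be technical.

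At 10 µM the ratio of footprints to mRNA changed on many transcripts, and rises outnumbered falls. It rose on 1211 of 9176 pairs (13.2% called higher) and fell on 837 (9.12% called lower) by edgeR's quasi-likelihood test of the interaction at an FDR of 0.05. The median log2 change was 0.80 among the rises and -0.76 among the falls, and 0.016 over all pairs. Among the calls, 321 pairs rose over 2-fold and 164 fell over 2-fold. Each library was scaled to its own total, so a shift common to every transcript is not visible in these changes. Isoforms of a gene share reads, so calls are not independent: the called pairs lay in 1090 of the 3710 blocks of 10 consecutive coding rows that held a kept pair. A block held rises in 662 cases, falls in 455 and both in 27. In 396 pairs the untreated mean of RNA-seq or monosomes lay under 10 CPM, so they were kept only through treated libraries. Without these, 1081 of 8780 pairs rose and 781 fell.

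These changes exceeded the spread between the DMSO libraries. Each 10 µM library can be set against 4 combinations of a monosome and an RNA-seq DMSO library. Against these, the share of pairs whose ratio differed over 1.5-fold was 20.4, 21.1, 22.2 and 23.0%. Between the ratios of DMSO 2 and DMSO 1 it was 2.22%, or 1.70% with the RNA-seq libraries exchanged. Over 2-fold lay 4.84 to 5.78% of pairs at 10 µM and 0.0436% between the DMSO ratios, or 0.0218% exchanged. All 1211 called rises lay above, and all 837 called falls below, each of the 4 combinations. The calls were made from these same libraries, so this describes them and does not support them. Over all pairs, 184 lay above and 97 below each combination by over 2-fold. The number of calls depended on where the spread was taken from. Without RNA-seq DMSO 1 the test called 2464 rises and 2220 falls, and without RNA-seq DMSO 2 it called 2384 and 1994, since the spread then came from the monosome libraries alone. Without monosome DMSO 1 it called 653 and 414, and without monosome DMSO 2 602 and 371.

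Most called ratios moved through the footprints rather than through the mRNA. In the same fit, monosome footprints alone rose on 1346 pairs (14.7%) and fell on 895 (9.75%), while mRNA rose on 312 (3.4%) and fell on 432 (4.71%). Where the ratio rose, the median log2 change was 0.52 in monosomes and -0.32 in RNA. Of these 1211 pairs, monosomes were called higher with no RNA call on 694, RNA was called lower with no monosome call on 187, both were called on 137 and neither on 193. Where the ratio fell, the medians were -0.50 and 0.27. Of these 837 pairs, 520 had a monosome fall alone, 111 an RNA rise alone, 52 both and 154 neither. The monosome change was the larger component in 65.8% of rises and 71.1% of falls. The ratio is built from these components, so their counts describe the calls and do not support them. The split was not repeated without the 396 pairs kept only through treated libraries. Both kinds shared a dispersion although RNA-seq varied more, so calls of monosomes and of RNA are not on an equal footing.

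**Figure D1:**
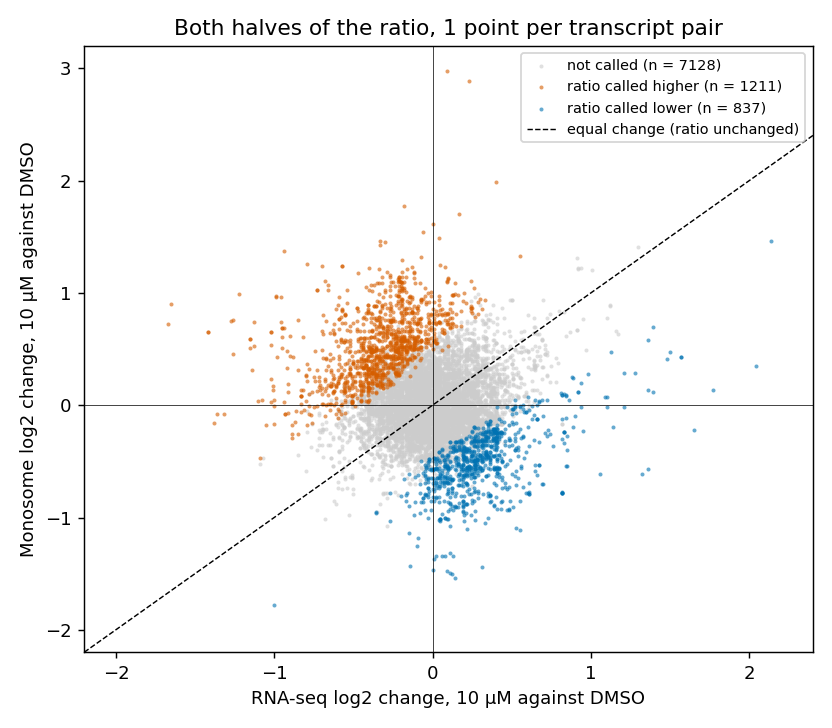
RNA-seq log2 change (horizontal axis) and monosome log2 change (vertical axis) at 10 µM against DMSO, 1 point per transcript pair, coloured by the call of the ratio. The 1211 rises lie above the dashed line of equal change and the 837 falls below it, most of them further from 0 along the monosome axis than along the RNA axis.

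Where mRNA rose or fell, the median footprint change was smaller than the mRNA change and positive in both cases. On the 312 pairs with raised mRNA, the median log2 change was 0.61 in RNA and 0.08 in monosomes, and footprints were called higher on 79 and lower on 52, where 14.7% and 9.75% of all pairs were. The ratio fell on 163 of them and rose on 1. On the 432 pairs with lowered mRNA, the medians were -0.58 and 0.15, and footprints were called lower on 28 and higher on 137. The ratio rose on 324 of these and fell on 1. Median coding length was 733 codons where mRNA rose and 147.5 where it fell. Over all 9176 pairs, Pearson's r between the monosome and RNA changes was -0.118, across transcripts that share libraries and reads. An RNA call enters the ratio, so these ratio counts describe where the mRNA calls sit.

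The direction of change followed coding length. Among the 399 pairs under 100 codons the ratio rose on 155 (38.8%) and fell on 9 (2.26%), and among the 1229 pairs of 1000 codons or more it rose on 17 (1.38%) and fell on 235 (19.1%). The classes between were bounded at 200, 300 and 500 codons. From 100 codons upwards, 418 of 1901 pairs rose and 135 fell, and from 200 codons 249 of 1445 rose and 75 fell. From 300 codons 257 of 1844 rose and 102 fell, and from 500 codons 115 of 2358 rose and 281 fell. The share of rises thus dropped at each step in length, against a background of 13.2%. The share of falls did not climb at every step. From the shortest class to the longest it was 2.26, 7.1, 5.19, 5.53, 11.9 and 19.1%, against a background of 9.12%.

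The median log2 change of the ratio fell by class in the same order. From the shortest class to the longest it was 0.41, 0.20, 0.14, 0.08, -0.09 and -0.28. Under 100 codons the median over the 4 DMSO combinations ran from 0.38 to 0.43, and at 1000 codons or more from -0.30 to -0.26. The DMSO ratios themselves differed by -0.071 and -0.005 in these classes, and by 0.003 and 0.072 with the RNA-seq libraries exchanged. With 1 pair kept per block of 10 rows, the shortest class had a median of 0.55 over 84 pairs, with 40 rises and 2 falls, and the longest had -0.28 over 594 pairs, with 9 rises and 112 falls. Across all pairs, Spearman's rho between coding length and the change was -0.378 at 10 µM and -0.432 at 1 µM. For DMSO 2 against DMSO 1 it was 0.0435.

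**Figure D2:**
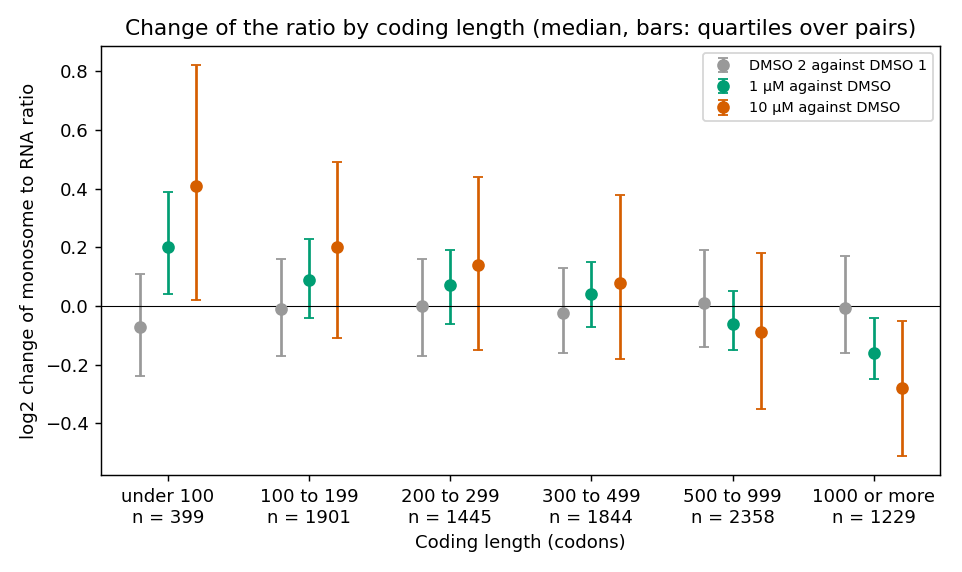
Log2 change of the monosome to RNA ratio (vertical axis) by coding length in 6 classes (horizontal axis), for 10 µM and 1 µM against DMSO and for DMSO 2 against DMSO 1. Points are medians and bars quartiles over pairs, and at 10 µM the medians step down from 0.41 in the shortest class to -0.28 in the longest while those of the DMSO libraries stay between -0.071 and 0.011.

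Both components moved with length, in opposite directions, and in the class medians the mRNA component was the larger. Under 100 codons the median log2 change was 0.13 in monosomes and -0.30 in RNA, and at 1000 codons or more it was -0.11 and 0.18. In the class from 100 codons the medians were 0.05 and -0.14, in that from 200 codons 0.04 and -0.10, and in that from 500 codons -0.03 and 0.07. Individual calls came mostly from footprints, then, but the shift of whole length classes lay more in RNA-seq. RNA-seq counts leave out 20 codons and monosome counts 10 codons of each coding region, at every dose alike, and the shortest regions rest on the fewest counted codons.

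The untreated ratio also set transcripts apart. To keep the grouping free of the libraries used for the change, pairs were split into quintiles, 5 groups of nearly equal size, by their ratio in the DMSO 1 libraries, and the change was taken against the DMSO 2 libraries. In the lowest quintile, with log2 ratios of -0.65 or less, the ratio changed by a median of 0.21 on the log2 scale at 10 µM. In the next quintiles it was 0.01, -0.05, -0.04 and -0.04. Ratios rose over 1.5-fold on 24.1% of pairs in the lowest quintile and on 11% in the highest, and fell over 1.5-fold on 6.64% and 13.9%. Among the kept pairs, those with few monosome footprints per mRNA before treatment thus gained more often. The filter of 10 CPM also counted the treated libraries, however. A pair with few untreated footprints therefore passed more readily where its footprints rose at 10 µM. The quintiles were not repeated without the 396 pairs kept only through treated libraries, so the part of this difference due to the filter was not tested. The lowest quintile held the longer coding regions, with a median of 635 codons against 214 in the highest, although long regions fell more often.

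Within each length group the lowest quintile had the highest median. Under 200 codons, medians ran from 0.56 in the lowest quintile (203 pairs) to 0.14 in the highest (855 pairs). From 200 to under 1000 codons they ran from 0.32 to -0.13, over 1134 and 907 pairs. At 1000 codons or more the median was -0.16 in the lowest quintile, -0.53 in the next to highest and -0.45 in the highest (73 pairs). In the lowest quintile the change lay in footprints, with medians of 0.23 in monosomes and 0.00 in RNA. At 1 µM the quintiles had medians of 0.02, -0.01, -0.02, -0.01 and 0.00.

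**Figure D3:**
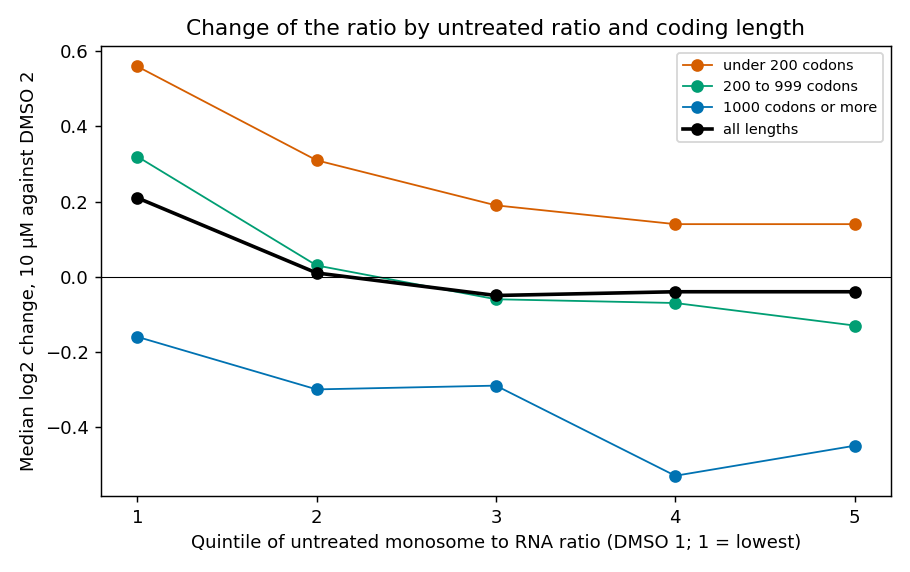
Median change of the log2 ratio at 10 µM against the DMSO 2 libraries (vertical axis) by quintile of the untreated ratio in the DMSO 1 libraries (horizontal axis), for all pairs and for 3 groups of coding length. In each length group the lowest quintile lies highest, at 0.56, 0.32 and -0.16 from the short to the long group.

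The spread of the ratio over transcripts differed little between treatments. The standard deviation of the log2 ratio over pairs was 0.755 and 0.789 in the DMSO libraries, 0.784 at 1 µM and 0.806 at 10 µM. The value at 10 µM lay above both DMSO values, and closer to the higher of them than they lay to each other. Short coding regions held the higher ratios already without girolline, at medians of 0.48 and 0.41 under 100 codons against -0.51 and -0.49 at 1000 or more. These levels are not comparable between lengths as such, since RNA-seq counts leave out more codons than monosome counts. At 10 µM these medians were 0.85 and -0.79, so the gap between short and long regions widened.

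At 1 µM no pair passed in the fit used for 10 µM. The edgeR quasi-likelihood test called 0 of 9176 (0% called), with 502 at an unadjusted p under 0.05 and a lowest adjusted p of 0.106. DESeq2 called 31 rises and 0 falls but gave no adjusted p for 8183 pairs, and limma's voom with weights per kind called 5 rises and 0 falls. Without RNA-seq DMSO 1 edgeR called 261 rises and 88 falls, and without RNA-seq DMSO 2 it called 462 and 247, with the spread again taken from the monosome libraries alone. Against the 4 DMSO combinations, 0.97 to 2.11% of pairs differed over 1.5-fold at this dose, close to the 1.70 and 2.22% between DMSO ratios. Yet the class medians lay in the same order as at 10 µM, at 0.20, 0.09, 0.07, 0.04, -0.06 and -0.16 from the shortest class to the longest. Over the 4 combinations the shortest class ran from 0.16 to 0.21 and the longest from -0.17 to -0.14, which lies outside the DMSO differences of these classes. Both doses are set against the same DMSO libraries, whose error they share. The 1211 rises and 837 falls at 10 µM, with medians of 0.80 and -0.76, had medians of 0.22 and -0.19 at 1 µM. From 1 to 10 µM, a change measured between single libraries whose error was taken from the DMSO libraries, the ratio rose on 220 pairs (2.4%) and fell on 125 (1.36%) by edgeR's quasi-likelihood test, with medians of 1.04 and -1.06.

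Disome libraries, which share no library with the ratio, moved the same way as the called ratios. They were shallower, with a median count of 70 to 131.5 over the kept pairs and a lowest count of 1. Their fit left 1 residual degree of freedom, so the disome calls rest on the spread between the disome DMSO libraries alone. Of the 9176 pairs 9170 were tested in disomes, where footprints rose on 2718 (29.6%) and fell on 1942 (21.2%) at 10 µM by edgeR's quasi-likelihood test within disomes. On the 1209 tested pairs with a raised ratio, disome footprints rose on 850 (70.3%) and fell on 50, with a median log2 change of 1.13. On the 836 with a lowered ratio they fell on 627 (75%) and rose on 31, with a median of -0.88. On the 7125 pairs without a call they rose on 1837 (25.8%) and fell on 1265 (17.8%), with a median of 0.05. On raised ratios the disome median exceeded the monosome median of 0.52, and on lowered ratios it lay below the monosome median of -0.50, on each kind's own scale. At 1 µM the disome medians of these groups were 0.40, -0.25 and 0.05.

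Disome change depends on coding length as well, with a Spearman's rho of -0.434 over these pairs, so the groups were also set side by side within length. Under 300 codons the disome median was 1.31 on raised ratios, 0.41 without a call and -0.87 on lowered ratios. From 300 to under 1000 codons the medians were 0.85, 0.02 and -0.88. At 1000 codons or more they were -0.13, -0.43 and -0.88, and there only 17 raised pairs were tested, of which 4 rose and 5 fell in disomes. Over all tested pairs of that length 1.3% rose and 46.9% fell in disomes. Among the 218 tested pairs under 300 codons with a lowered ratio, disome footprints rose on 27 (12.4%), where 47.7% of all pairs of that length did. In the middle group they rose on 4 of 383 (1.04%), where 21.8% of all did, and in the longest on 0 of 235.

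**Figure D4:**
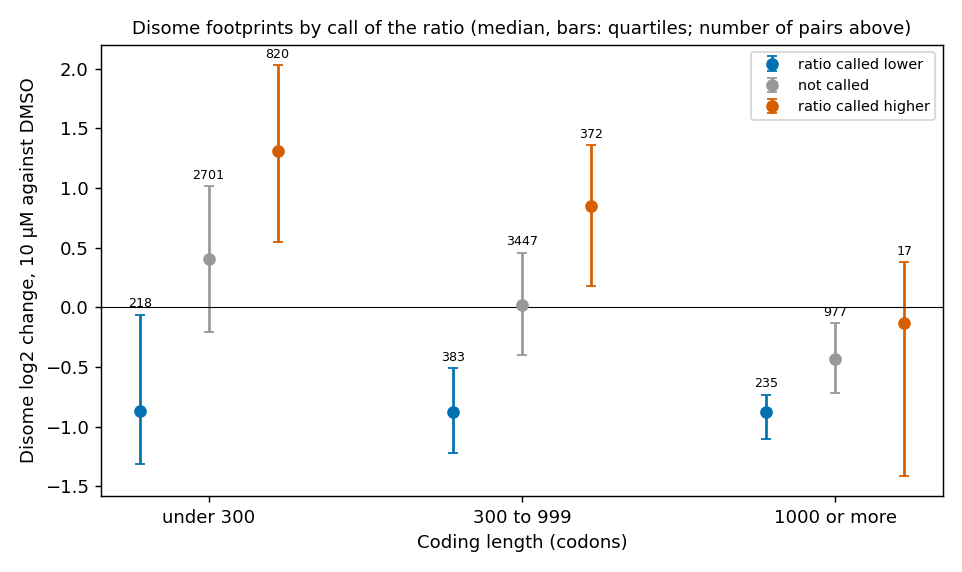
Disome log2 change at 10 µM against DMSO (vertical axis) by coding length (horizontal axis) for pairs whose monosome to RNA ratio was called lower, not called or called higher. Points are medians, bars are quartiles, with the number of pairs printed on each bar, and in each length group the lowered ratios lie lowest, at -0.87, -0.88 and -0.88.

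The 12 largest rises and 12 largest falls, taken at least 10 rows apart, were of different kinds. The rises had log2 changes of 1.94 to 2.89 on coding regions of 26 to 335 codons, 8 of them under 100 codons. Monosomes were called higher on all 12 and RNA was called lower on 10, where 14.7% and 4.71% of all pairs were. The monosome change was the larger component on 5. Their untreated log2 ratios ran from -3.66 to 2.4 in DMSO 1, so mRNAs with few and with many footprints were among them. The falls had changes of -1.93 to -1.42 on regions of 100 to 5538 codons, 3 of them of 1000 codons or more. Monosomes were called lower on 10 of these and RNA higher on 7, where 9.75% and 3.4% of all pairs were. Both sets were picked by a ratio built from these components, so the component counts describe the pairs and do not support them. Of the rises 2, and of the falls 1, were kept only through treated libraries.

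The largest rise came through footprints alone. Transcript uc003puk.3, of 335 codons, paired with ENST00000368882.8, had 5.11 and 4.98 CPM in the DMSO monosome libraries, 10.3 at 1 µM and 39.8 at 10 µM. RNA-seq gave 70.4 and 77.7 CPM in the DMSO libraries, 79.5 at the lower dose and 78.7 at 10 µM. The 10 µM monosome library stood far above the others, while RNA-seq hardly differed, so the ratio rose from a very low level. The log2 change of the ratio was 2.89 (SE 0.17), made up of 2.98 in monosomes and 0.09 in RNA. Disome counts of 13 and 29 with DMSO compared with 39 at 1 µM and 228 at 10 µM, for a log2 change of 3.06. Its monosome mean passed 10 CPM only through the 10 µM library, where it is high, so its change is given as a description without a test. Another transcript of equal length lay within 10 rows, and the aligned run that holds uc003puk.3 had only 2 rows.

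The next rise came through both components. Transcript uc063fba.1, of 56 codons, paired with ENST00000511844.1, had monosome levels of 137.8 and 128.9 CPM in the DMSO libraries, 198.8 at the lower dose and 248 at 10 µM. In RNA-seq it had 27.3 and 31.7 CPM in the DMSO libraries, 25.7 at the lower dose and 9.41 at 10 µM. Footprints went up as the mRNA went down, and neither kind overlapped its DMSO values at 10 µM. The log2 change of the ratio was 2.55 (SE 0.18), with an adjusted p of 0.00024 in the edgeR interaction test (Benjamini-Hochberg), made up of 0.90 in monosomes and -1.65 in RNA. Disome counts of 65 and 140 with DMSO compared with 349 at 1 µM and 679 at 10 µM, for a log2 change of 2.37. No other transcript of equal length lay within 10 rows of uc063fba.1. Its aligned run had only 2 rows, however, so few neighbouring rows anchor its pairing.

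The 2 largest falls came mostly through mRNA. Transcript uc003ngx.5, of 127 codons, paired with ENST00000356530.5, had RNA-seq levels of 40.7 and 41.7 CPM in the DMSO libraries, 48.1 at the lower dose and 106 at 10 µM. Monosomes gave 223 and 209 CPM in the DMSO libraries, 184 at the lower dose and 145 at 10 µM. Thus mRNA rose above both DMSO libraries while footprints fell below both. The log2 change of the ratio was -1.93 (SE 0.14), adjusted p = 0.00024 in the same edgeR test, with 1.36 in RNA and -0.57 in monosomes. Its disome log2 change was 0.21, with an adjusted p of 0.462 in edgeR's test within disomes. Transcript uc003njo.4, also of 127 codons, paired with ENST00000621112.1, had RNA-seq levels of 9.86 and 8.14 CPM in the DMSO libraries, 11.8 at the lower dose and 22.4 at 10 µM. Monosomes gave 108 and 81.4 CPM in the DMSO libraries, 75.8 at the lower dose and 62.2 at 10 µM, again with higher mRNA and fewer footprints than either DMSO library. The log2 change of the ratio was -1.93 (SE 0.26). Its untreated RNA-seq level lay under 10 CPM, and it was kept only through treated libraries, where that level is higher, so its change is given as a description without a test. For both, other transcripts of equal length lay within 10 rows, so the pairing by length alone does not settle which of them belong together.

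**Figure D5:**
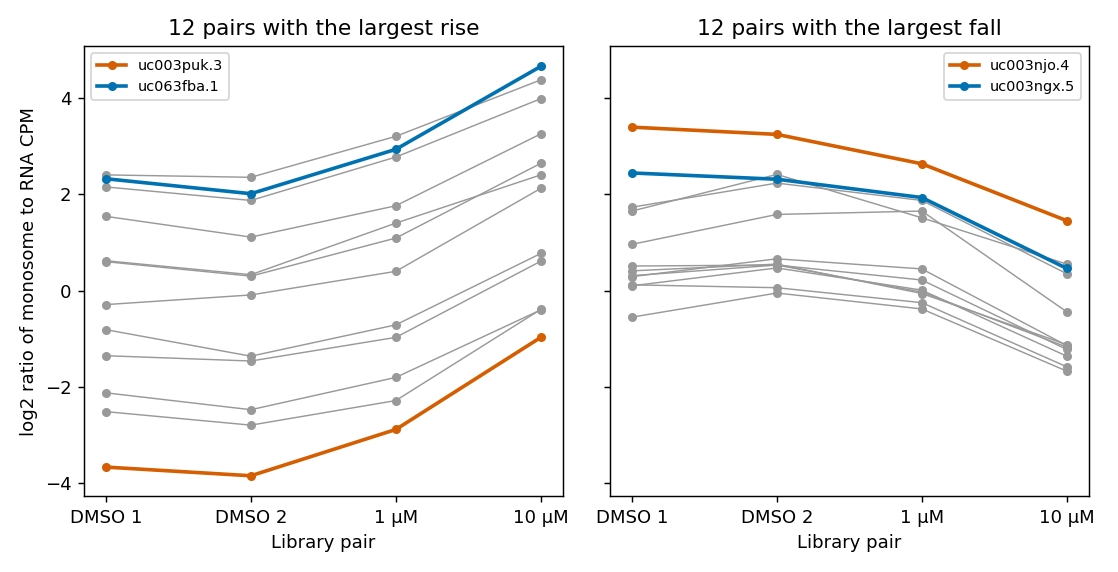
Log2 ratio of monosome to RNA CPM (vertical axis) in the libraries of each treatment (horizontal axis) for the 12 largest rises and the 12 largest falls, with the first 2 of each in colour. In uc003puk.3 the ratio stood at -3.66 and -3.84 with DMSO and at -0.97 at 10 µM, and in uc003ngx.5 at 2.44 and 2.31 with DMSO and at 0.46 at 10 µM.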

How the data were processed

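The authors deposited raw read counts per transcript, 1 table per library, with another length column (a coding length less a constant per kind of library, in codons as inferred from the values). The submitters' processing notes name build hg38, CASAVA 1.8 and STAR 2.7.0a, with no role for either tool. The counting tool, annotation and handling of isoforms are not given in the sources used here. Lengths were restored by adding 20 in RNA-seq and 10 in monosome tables, and coding rows were aligned with diff (longest common subsequence). Rows without a coding length held 0 counts.

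Counts of 8 libraries in 6 groups (2 residual degrees of freedom) entered edgeR 4.0.16 (R 4.3.3). The library size was the total over coding rows, TMM factors were computed within each kind, and the quasi-likelihood test of the interaction of kind and dose was adjusted by Benjamini-Hochberg over 9176 pairs. A dose with a single library borrows the spread of the DMSO libraries. One dispersion per pair served both kinds, although RNA-seq varied more. Disomes were fitted alone, with filterByExpr and 1 residual degree of freedom. Values per library add 0.5 CPM on the log2 scale. Named pairs are the 12 highest and 12 lowest called changes with the same sign against all 4 DMSO combinations, at least 10 rows apart, of which the first 2 are given by ID. Data were also simulated for the same pairs, with 1 common dispersion for all pairs and libraries (a coefficient of variation of 7.55%) and changes placed in the 10 µM monosome library. There, 88% of changes of 1 and 14% of changes of 0.5 on the log2 scale were called, with 3 false calls. The simulation left out the larger spread of RNA-seq, so it does not give the rate of false calls in the real data. The members, lists and tests were chosen with earlier results of these data known. DESeq2 1.42.0 and limma 3.58.1 served as alternatives. The dose step and the exclusion of pairs with neighbours of equal length were added after the data were seen.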

Additional observations from a re-analysis of the deposited data

How the results depend on the processing

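The 4 transcripts given by ID kept their direction under every alternative that held them, and uc063fba.1 and uc003ngx.5 stayed past the threshold in each, with log2 changes of 2.82 to 2.96 for uc003puk.3, 2.43 to 2.65 for uc063fba.1, -2.12 to -1.71 for uc003njo.4 and -1.99 to -1.88 for uc003ngx.5. The class medians kept their sign throughout. Of the alternative counts of calls, 44 stayed within 1.5 times the main count or equal to it, and 26 did not. At 10 µM DESeq2 called 740 rises in place of 1211, a mean of at least 1 CPM gave 2450 rises and 1892 falls, a mean of at least 30 CPM gave 547 and 407, pairs in aligned runs of at least 5 gave 786 rises, and 1 pair per block gave 485 and 326. The CPM, run and block settings test other numbers of pairs: 31132, 2848, 6226 and 3710. For the lower count of DESeq2 the cause was not tested. Leaving out 1 DMSO library gave 602 to 2464 rises and 371 to 2220 falls at 10 µM, and 1 to 462 rises and 0 to 247 falls at 1 µM. At 1 µM rises numbered 31 with DESeq2, 5 with voom and 1 at a mean of at least 1 CPM. The replicate block called 4 rises at 1 µM and 2211 pairs at 10 µM. The replicate numbers pair no samples by label, and the deviations of same-numbered DMSO libraries had a Pearson's r of -0.115.

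Medians by length moved by more than their spread over DMSO combinations in some settings. At a mean of at least 1 CPM they were 0.277 under 100 codons, 0.167 from 100 codons, 0.065 from 300 codons and -0.358 in the longest class. At a mean of at least 30 CPM they were 0.60, 0.151, 0.169, 0.034, -0.143 and -0.301 from the shortest to the longest class, and with 1 pair per block 0.549, 0.258, 0.193, 0.10 and -0.069 in the first 5. DESeq2 size factors gave 0.06, -0.105 and -0.30 in the last 3 classes. From 300 codons, aligned runs gave 0.058 and unmerged pairs 0.063. Without neighbours of equal length, an alternative chosen after seeing the data, the shortest class had 0.355, and 951 pairs rose and 655 fell. Requiring 10 CPM in the untreated libraries, also chosen later, left 8780 pairs, of which 1862 were called, and left out uc003puk.3 and uc003njo.4. Leaving out 1 DMSO library gave 0.175 to 0.212 in the class from 100 codons, -0.096 to -0.078 in that from 500 codons and -0.295 to -0.269 in the longest. Precision is limited by the single library per dose and by the spread of the RNA-seq DMSO libraries.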

Other observations

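One exact coding length stood apart once the values had been seen. Among 318 coding lengths with at least 10 kept pairs, transcripts of 127 codons had the highest share of falls, with 21 of 28 called lower at 10 µM (75%) and 1 called higher, where 9.12% and 13.2% of all pairs were. The length with the next highest share, 104 codons, had 7 of 23 lower (30.4%). Transcripts of 126 codons went the other way, with 10 of 19 called higher and 0 lower, and those of 83 codons had the highest share of rises, with 7 of 10. The pairs of 127 codons had a median log2 change of the ratio of -1.05, from -1.93 to 0.84. Their medians were 0.84 in RNA and -0.20 in monosomes. Of the 28, RNA was called higher on 21 and monosomes lower on 7, where 3.4% and 9.75% of all pairs were. At 1 µM the median of the ratio was -0.14. Of the 28 pairs, 17 lay within 300 consecutive coding rows, and 19 had another transcript of equal length within 10 rows, so single pairs may be exchanged among them. In disomes, 10 of 27 rose and 5 fell, where 29.6% and 21.2% of all tested pairs did.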
